A study of Saccharomyces cerevisiae with 4 samples.

Results

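Transcripts of the TOR (target of rapamycin) signalling network and of autophagy were compared between wild-type budding yeast and the Sen1ΔN strain. The genes were chosen by name as 43 components of the 2 TOR complexes, the phosphatase branch below TORC1, its regulators on the vacuole and the core autophagy (ATG) machinery. A single probe set measured each of 42 of them, among 5449 yeast genes in all, and FPR1, the gene of the rapamycin-binding protein, was not analysed here. Each strain had 2 Affymetrix arrays of total RNA from independent experiments, started at an OD600 of 0.4 and harvested in exponential growth at 1.5, in synthetic complete medium with 2% glucose at 24 °C. The values are log2 signals after RMA, which corrects for background, brings all arrays to the same distribution and merges a probe set's probes into 1 value. As wild type the study used BY4741 (MATa), which carries ura3_delta_0, met15_delta_0, leu2_delta_0 and his3_delta_1. The Sen1ΔN strain is MATα and carries lys2-801, ura3-52, ade2-101, trp1-_delta_1 and his3-200, with its sen1 allele written as leu2-_delta_1::sen1-2. Both strains were untreated. Sen1 is a nuclear helicase that acts in ending transcription of short non-coding RNAs. The strains are thus not isogenic, and mating type, marker genes and the SEN1 allele cannot be told apart in any difference below.

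TOR is a protein kinase that sits in a pair of complexes. TORC1, which rapamycin inhibits, drives ribosome production and growth when amino acids are plentiful and holds autophagy back, while TORC2 controls sphingolipid synthesis and the actin cytoskeleton. When TORC1 is inactive, ATG proteins wrap cytoplasm in a membrane and deliver it to the vacuole for breakdown. In growing yeast many of the same proteins run the Cvt (cytoplasm-to-vacuole targeting) route, which carries a few hydrolases into the vacuole.

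The labels were first checked against marker transcripts. The 7 markers of MATa cells all fell in Sen1ΔN (median log2 difference -4.18), while the 5 MATα markers all rose (median 3.70). Of 5 genes of meiosis, a program of diploid cells, 3 rose and 2 fell, with log2 differences from -0.58 to 1.83. SEN1 itself rose by 1.47 (SE 0.09), and no source used here says where its probe set lies relative to the mutation, so its level does not check the allele. Across genes, the correlation of replicate arrays was 0.997 for wild type and 0.993 for Sen1ΔN. In the 6 of 7 yeast control transcripts measured above background at both ends, the 3′ signal exceeded the 5′ signal by 0.15 to 2.29 log2 on the wild-type arrays and by 2.20 to 5.91 on the Sen1ΔN arrays. This sign of RNA or label length moved with strain, and its part in the differences below was not tested.

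The genes of the TOR kinases and of most of their partners differed little between the strains, while vacuolar regulators and ATG genes held both rises and falls. Of the 42 genes, 19 were called (limma adjusted p under 0.05 over all 5449 genes), 6 of them higher and 13 lower in Sen1ΔN. That is 45.2% of the members, against 69.7% of all genes called. Rises made up 35.3% and falls 34.4% of all genes. The median absolute log2 difference was 0.27 over the members and 0.46 over all genes. Of the members, 20 (47.6%) lay within 0.25 log2 of no difference, against 28.9% of all genes. Called changes of at least 2-fold were 3 rises (ATG10, MEH1, VPS30), against 8.63% of all genes, and 2 falls (ATG19, ATG2), against 11.3%, while 19.9% of all genes changed so far either way. The arrays of the strains did not overlap for 32 members, and for 87.2% of all genes. Standard errors of the members ran from 0.06 to 0.23 log2. Of the 19 calls, 13 held under each of 12 other ways of processing, and with the length trend of the differences removed the calls were 8 rises and 11 falls.

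**Figure D1:**
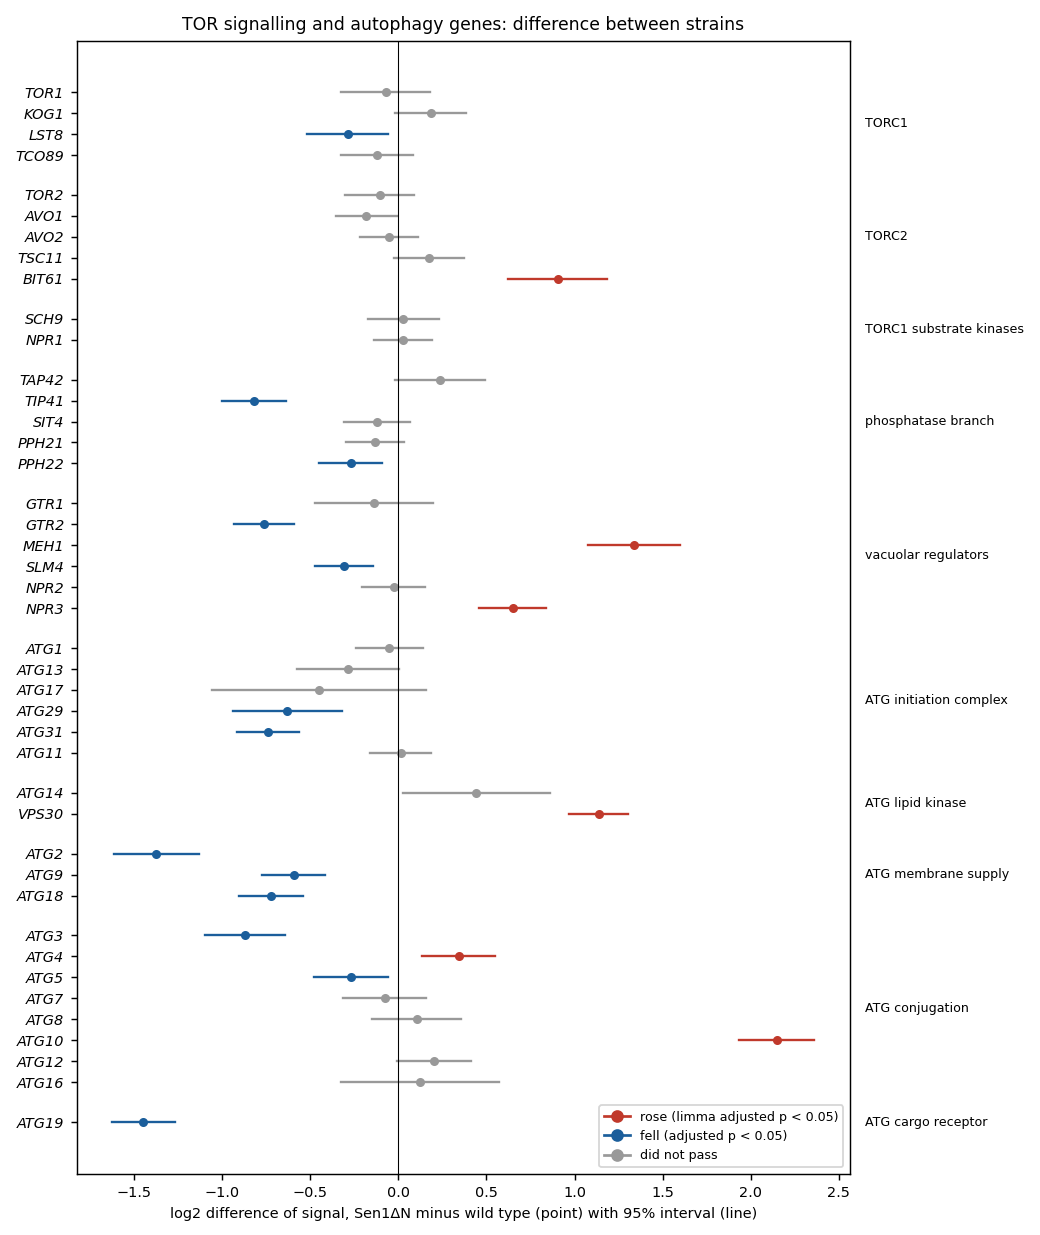
The log2 difference of signal (Sen1ΔN minus wild type, x axis) for each of the 42 measured genes, ordered by complex, with the 95% interval of limma as a line, which is not adjusted for the number of genes. Red points rose, blue points fell and grey points did not pass the adjusted test. The 9 TORC1 and TORC2 genes include 2 called ones, where 69.7% of all genes were called. ATG10 lies farthest right at 2.15 and ATG19 farthest left at -1.45.

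Within TORC1, 1 of 4 genes was called. TOR1, which encodes the kinase found only in TORC1, gave a log2 signal of 10.14 and 10.21 in wild-type cells, and its Sen1ΔN readings were 10.21 and 10.00. These values overlapped, and the difference was -0.07 (95% interval -0.32 to 0.18, limma adjusted p = 0.535). KOG1, the counterpart of mammalian raptor that presents substrates to the kinase, read 10.40 and 10.37 in the wild type and 10.63 and 10.50 in Sen1ΔN. It was higher on both Sen1ΔN arrays but did not pass (0.18, SE 0.08, adjusted p = 0.0876); without Sen1ΔN replicate 2 it passed at 0.25 (adjusted p = 0.0374). TCO89, a non-essential subunit, differed by -0.12 (95% interval -0.33 to 0.08).

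LST8, a WD-repeat subunit shared by both complexes, was the called gene. Its signal was 10.39 and 10.23 in the wild type and 10.08 and 9.97 in Sen1ΔN, a fall by 0.29 log2 (SE 0.09, adjusted p = 0.0356). The call rested on small margins. Without wild type replicate 1 the adjusted p was 0.201, without wild type replicate 2 it was 0.0579, and without Sen1ΔN replicate 2 it was 0.0878. With the length trend removed the difference was -0.13 (adjusted p = 0.247).

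TORC2 held 1 call among 5 genes (20.0%, against 69.7% of all genes), and it was a rise. TOR2, whose kinase works in TORC2 and can also serve in TORC1, read 11.10 and 11.23 in the wild type against 11.05 and 11.07 in Sen1ΔN, a difference of -0.11 (95% interval -0.30 to 0.09, adjusted p = 0.258). The intervals of TOR1 and TOR2 thus both exclude a change of 1 log2 unit. AVO1 and AVO2, subunits particular to TORC2, differed by -0.18 (adjusted p = 0.062) and -0.05 (adjusted p = 0.486). TSC11, which encodes the scaffold subunit also called Avo3, differed by 0.17 (adjusted p = 0.099), and without Sen1ΔN replicate 1 it passed at 0.24 (adjusted p = 0.041).

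BIT61, a non-essential TORC2 subunit, stood apart from its partners. Its signal was 8.34 and 8.58 in the wild type and 9.30 and 9.42 in Sen1ΔN, with every Sen1ΔN array above every wild-type array. It rose by 0.90 log2 (1.87-fold, SE 0.11, adjusted p = 0.00168). BIT2, the paralog of BIT61, differed by 0.12 (95% interval -0.10 to 0.34, adjusted p = 0.25). With the length trend removed BIT2 passed as a rise, and the contrast between the pair was not tested.

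Neither measured kinase below TORC1 was called. SCH9, the S6 kinase counterpart that TORC1 phosphorylates at the vacuole, differed by 0.03 (95% interval -0.17 to 0.23), and NPR1, a kinase that TORC1 restrains and that acts on nutrient permeases, by 0.02 (95% interval -0.14 to 0.19). Their adjusted p values were 0.766 and 0.74. The SCH9 arrays of the strains overlapped, whereas both NPR1 readings of Sen1ΔN (10.72 and 10.73) lay just above those of the wild type (10.69 and 10.71).

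In the phosphatase branch 2 of 5 genes were called (40.0%, against 69.7% of all genes), both lower. TAP42 encodes the partner that TORC1 keeps bound to phosphatase catalytic subunits, and TIP41 encodes a protein that binds Tap42 and counteracts TORC1. TIP41 read 11.09 and 11.15 in the wild type and 10.34 and 10.26 in Sen1ΔN. It fell by 0.82 log2 (1.76-fold, SE 0.07, adjusted p = 0.0006), with no overlap between the strains. TAP42 lay the other way, at 10.17 and 10.02 in the wild type and 10.42 and 10.24 in Sen1ΔN, but did not pass (0.24, adjusted p = 0.0851). It passed without Sen1ΔN replicate 2 (0.32, adjusted p = 0.0324) and with the length trend removed (0.44, adjusted p = 0.0131).

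Of the 3 catalytic subunits measured, 1 was called, where 69.7% of all genes were. SIT4, a PP6-type phosphatase, differed by -0.12 (95% interval -0.31 to 0.07, adjusted p = 0.189). PPH21 and PPH22 encode redundant catalytic subunits of PP2A, and similar paralogs such as these may share hybridisation. PPH22 fell by 0.27 (SE 0.07, adjusted p = 0.0199) and PPH21 differed by -0.14 (adjusted p = 0.112). Without wild type replicate 1 or 2 the adjusted p of PPH22 was 0.111 and 0.117, and with the length trend removed its difference was -0.062 and that of PPH21 was 0.071.

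The vacuolar regulators of TORC1 held 4 calls among 6 genes, split evenly between rises and falls. That is 66.7%, close to the 69.7% of all genes called. GTR1 and GTR2 encode the Rag-type GTPases that pass the amino acid signal to TORC1, and MEH1 (Ego1) and SLM4 (Ego3) encode parts of the EGO complex that tethers them to the vacuole. MEH1 read 10.03 and 9.80 in the wild type and 11.21 and 11.29 in Sen1ΔN. It rose by 1.34 log2 (2.53-fold, SE 0.10, adjusted p = 0.000432), which ranked 248 from the top among all genes. SLM4 fell by 0.31 (SE 0.06, adjusted p = 0.01), a call lost without wild type replicate 1 or 2 (adjusted p = 0.075 and 0.078).

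GTR2 read 11.83 and 11.78 in the wild type and 11.06 and 11.03 in Sen1ΔN, and fell by 0.76 (1.70-fold, SE 0.07, adjusted p = 0.000619). For GTR1 the wild-type arrays were nearly equal, at 11.03 on each, whereas the Sen1ΔN arrays parted, at 11.06 and 10.72. Its difference was -0.14 (SE 0.13, adjusted p = 0.372); it was -0.31 without Sen1ΔN replicate 1, where it passed (adjusted p = 0.0177), and 0.034 without replicate 2. The GTPase pair thus had 1 gene that fell and 1 that overlapped between strains.

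NPR2 and NPR3 encode subunits of SEACIT, which stimulates GTP hydrolysis by Gtr1 and so restrains TORC1 when amino acids run short. NPR3 read 10.15 and 10.08 in the wild type and 10.72 and 10.80 in Sen1ΔN, a rise by 0.65 (1.57-fold, SE 0.07, adjusted p = 0.00134). NPR2 overlapped between strains, with a difference of -0.03 (95% interval -0.21 to 0.15). The other SEACIT gene, IML1, fell by 0.49 (SE 0.08, adjusted p = 0.00454), a call that the unmoderated linear model did not give (adjusted p = 0.0503). The 3 genes of this complex thus gave a rise, a fall and an overlap.

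**Figure D2:**
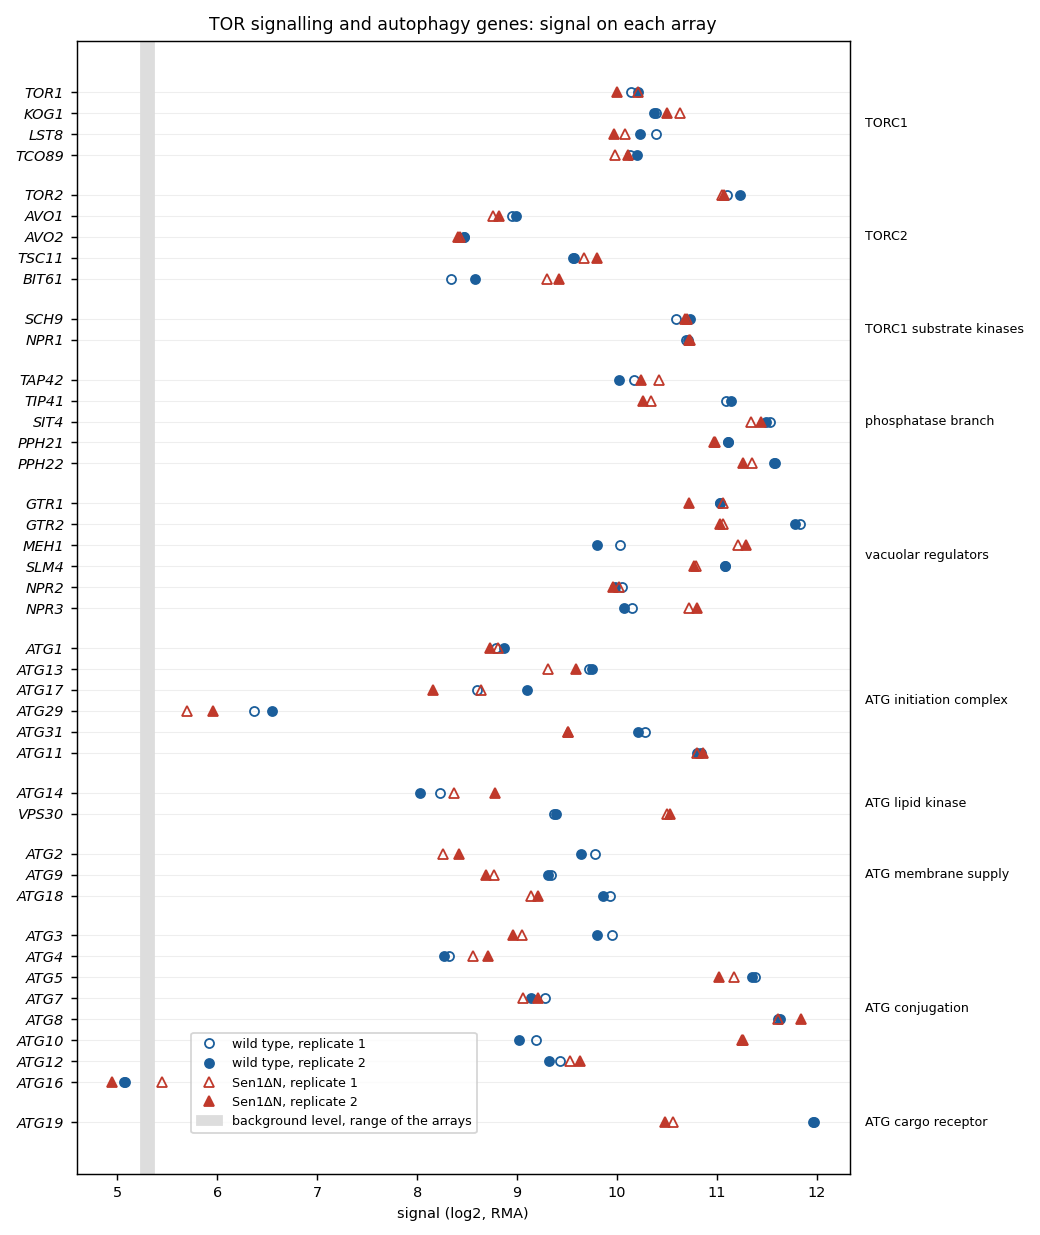
The log2 RMA signal (x axis) of each measured gene on the 4 arrays, with circles for the wild type and triangles for Sen1ΔN, open for replicate 1 and filled for replicate 2. The grey band spans the background levels of the arrays; ATG16 lies in or below it on 3 arrays, and MEH1, ATG10, ATG2 and ATG19 show strains well apart, while TOR1, SCH9 and ATG11 overlap. Positions along the axis compare arrays for 1 gene, not genes with each other.

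Autophagy genes were called in 11 of 20 cases (55.0%, against 69.7% of all genes), 3 up and 8 down (against 35.3% and 34.4% of all genes), with a median log2 difference of -0.17 against 0.014 over all genes. They are given below in the order of their work. ATG1 encodes the kinase that starts autophagosome formation and ATG13 its regulatory partner, which TORC1 phosphorylates. ATG1 read 8.79 and 8.87 in the wild type and 8.81 and 8.73 in Sen1ΔN, a difference of -0.05 (95% interval -0.24 to 0.14, adjusted p = 0.549). ATG13 differed by -0.29 (SE 0.11, adjusted p = 0.07), and passed without Sen1ΔN replicate 2 (-0.43, adjusted p = 0.00656).

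ATG17, ATG29 and ATG31 encode the scaffold on which starvation-induced autophagy assembles. ATG31 read 10.28 and 10.21 in the wild type and 9.51 on both Sen1ΔN arrays, and fell by 0.74 (1.67-fold, SE 0.07, adjusted p = 0.000696). ATG29, a dim gene at 6.37 and 6.54 in the wild type, read 5.70 and 5.95 in Sen1ΔN and fell by 0.63 (SE 0.12, adjusted p = 0.00744). It overlaps the end of SET6, which rose by 0.94, in the R64 gene table. ATG17 was the most variable gene of the set. It read 8.60 and 9.10 in the wild type and 8.64 and 8.16 in Sen1ΔN, a difference of -0.45 (SE 0.23, adjusted p = 0.142) that passed without Sen1ΔN replicate 1 (-0.69, adjusted p = 0.0341).

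ATG11, the scaffold for selective routes such as Cvt, differed by 0.01 (95% interval -0.16 to 0.19). Of the 3 genes for the starvation scaffold 2 were thus called, both lower, where 69.7% of all genes were called and 34.4% fell. The arrays of the strains overlapped for ATG17 and ATG11.

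The lipid kinase complex makes the phosphoinositide that marks the forming membrane. VPS30, the yeast counterpart of Beclin 1, read 9.37 and 9.39 in the wild type and 10.50 and 10.53 in Sen1ΔN. It rose by 1.14 (2.20-fold, SE 0.06, adjusted p = 0.000224). ATG14, which directs Vps30 and the kinase Vps34 to autophagy, had both Sen1ΔN arrays (8.37 and 8.77) above those of the wild type (8.23 and 8.03), but the difference of 0.44 (SE 0.16) missed the threshold (adjusted p = 0.0586). It passed without Sen1ΔN replicate 1 (0.65, adjusted p = 0.00501), with quantile normalization (0.47, adjusted p = 0.0441) and with the length trend removed (0.64, adjusted p = 0.0197). VPS38, whose protein takes the place of Atg14 in an endosomal form of the complex, rose by 1.02 (SE 0.08, adjusted p = 0.000476), and the kinase gene VPS34 differed by -0.03 (adjusted p = 0.758).

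All 3 genes for membrane supply fell, as did 34.4% of all genes. Atg9 is the membrane protein whose vesicles seed the autophagosome, and Atg2 with Atg18 forms a lipid-transfer complex that feeds its growth. ATG2 read 9.78 and 9.64 in the wild type and 8.26 and 8.42 in Sen1ΔN, a fall by 1.37 (2.59-fold, SE 0.09, adjusted p = 0.000339). ATG18 fell by 0.72 (SE 0.07), from 9.93 and 9.86 to 9.14 and 9.21, and ATG9 fell by 0.60 (SE 0.07), from 9.34 and 9.31 to 8.77 and 8.69. None of the 3 overlapped between strains, and they kept the call under the 12 alternatives. ATG21, the paralog of ATG18 that acts in recruiting the conjugation machinery, rose by 0.66 (SE 0.08, adjusted p = 0.00149).

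The conjugation genes went both ways, with 2 rises and 2 falls among 8. These enzymes link Atg8 to a lipid and Atg12 to Atg5 in reactions that resemble ubiquitin transfer. ATG10, the E2-like enzyme that passes Atg12 to Atg5, read 9.19 and 9.02 in the wild type and 11.25 and 11.26 in Sen1ΔN. It rose by 2.15 (4.43-fold, SE 0.08, adjusted p = 0.000109), which ranked 78 from the top among all genes, and over the alternatives its difference stayed between 1.92 and 2.23. ATG3, the E2-like enzyme of Atg8, went the other way. It read 9.95 and 9.80 in the wild type and 9.05 and 8.96 in Sen1ΔN, and fell by 0.87 (1.83-fold, SE 0.09, adjusted p = 0.000943).

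ATG7, the E1-like enzyme shared by both reactions, overlapped between strains (-0.08, 95% interval -0.31 to 0.16). Smaller changes were seen in ATG4, the protease that trims Atg8 and releases it from lipid, and in ATG5. ATG4 rose by 0.34 (SE 0.08, adjusted p = 0.0152), a call lost without wild type replicate 1 (adjusted p = 0.0666) or 2 (adjusted p = 0.0917). ATG5 fell by 0.27 (SE 0.08, adjusted p = 0.0337). Its call was lost without wild type replicate 1 or 2 (adjusted p = 0.152 and 0.129), without Sen1ΔN replicate 2 (0.0788), with the replicate block (0.0546) and with the length trend removed (-0.12, adjusted p = 0.238).

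ATG8 encodes the ubiquitin-like protein that coats the autophagosome, and its transcript is known to climb strongly on starvation. Here it read 11.61 and 11.64 in the wild type and 11.61 and 11.84 in Sen1ΔN, which overlapped (0.10, 95% interval -0.15 to 0.36, adjusted p = 0.381). It is the shortest measured member, at 354 bp, and with the length trend removed its difference became -0.34 and passed (adjusted p = 0.0309). ATG12, the other ubiquitin-like gene, differed by 0.20 (SE 0.08, adjusted p = 0.0756). ATG16, which joins the Atg12–Atg5 conjugate to the membrane, was not above background in the wild type (5.07 on both arrays) and was above it on 1 of 2 Sen1ΔN arrays (5.44, against 4.95 on the other), so no fold is given. Without Sen1ΔN replicate 2 its difference passed at 0.37 (adjusted p = 0.0101), on that single array.

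ATG19 encodes the receptor that brings the precursor of aminopeptidase I into Cvt vesicles. It read 11.97 and 11.98 in the wild type and 10.56 and 10.48 in Sen1ΔN, and fell by 1.45 (2.73-fold, SE 0.07, adjusted p = 0.000163), the largest fall among the members. ATG34, a paralog next to it whose product is a receptor for α-mannosidase in starvation-induced autophagy, fell by 0.51 (SE 0.13, adjusted p = 0.0188). That call was lost without wild type replicate 1 (adjusted p = 0.0579) or 2 (adjusted p = 0.0729), in the unmoderated linear model (adjusted p = 0.136) and with the length trend removed (adjusted p = 0.0913).

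A wider list of 85 genes of the same pathways was examined in the same fit, of which 84 were measured. In it 60 genes (71.4%) were called, 23 up and 37 down, close to the 69.7% of all genes. With the length trend removed the calls were 32 up and 33 down.

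All 8 measured genes of vacuolar hydrolases and Cvt cargo fell, with a median of -1.25 log2, where 34.4% of all genes fell. Of them, 6 fell at least 2-fold, as did 11.3% of all genes. This list was chosen with earlier results of these data known, so the shared fall is a description and not a test. APE1, the main Cvt cargo, read 13.25 and 13.36 in the wild type and 10.54 and 10.63 in Sen1ΔN. It fell by 2.72 (6.58-fold, SE 0.08, adjusted p = 6.33e-05). The other Cvt cargo genes are AMS1, for vacuolar α-mannosidase, and APE4, for aspartyl aminopeptidase. AMS1 fell by 2.23 (4.68-fold, SE 0.07), and APE4 fell by 1.48 (2.78-fold, SE 0.06). Thus ATG19, the receptor gene of this route, and all 3 cargo genes were lower in Sen1ΔN.

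Among the proteases that act inside the vacuole, PRB1, for proteinase B, read 12.39 and 12.44 in the wild type and 10.43 and 10.42 in Sen1ΔN. It fell by 1.99 (3.97-fold, SE 0.07, adjusted p = 8.18e-05). PRC1, for carboxypeptidase Y, fell by 1.02, CPS1, for carboxypeptidase S, fell from a mean of 12.03 to 11.03, PEP4, for proteinase A, which matures the others, fell by 0.62, and APE3, for aminopeptidase Y, fell by 0.39. The 8 genes kept their calls under all 12 alternatives. In this list only APE1 was named by the rule for genes of the wider lists, and the others were singled out after their values were seen.

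**Figure D3:**
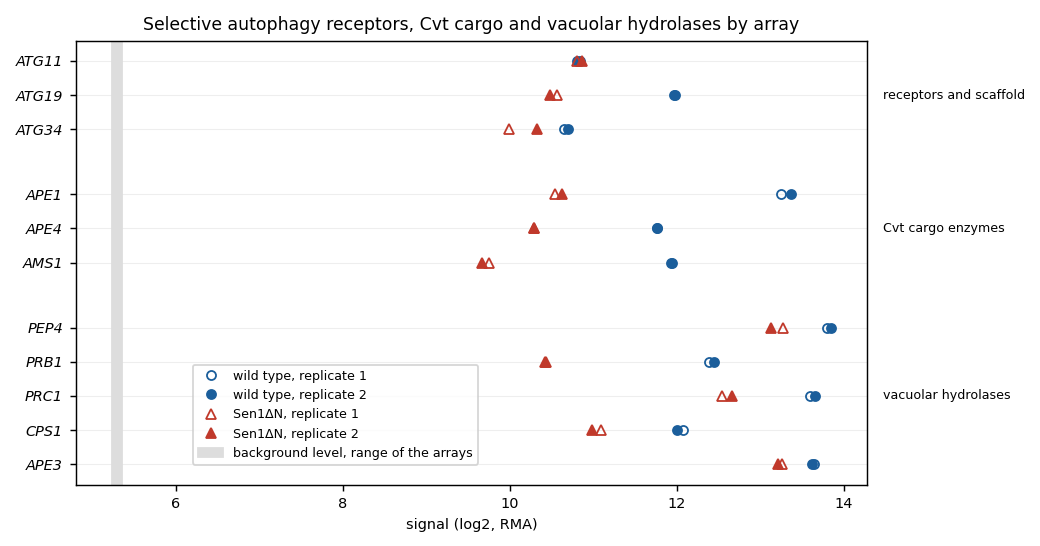
The log2 RMA signal (x axis) on each array of genes for selective autophagy receptors and a scaffold, for Cvt cargo and for vacuolar hydrolases, with circles for the wild type, triangles for Sen1ΔN and a grey band for the background levels. ATG11 overlaps between strains, whereas for each other gene both Sen1ΔN arrays lie below both wild-type arrays, by the widest distance for APE1 (13.30 against 10.59 on average).

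Of 13 other TORC1 regulators, 3 rose and 7 fell (76.9% called, against 69.7% of all genes). EGO2, a further subunit of the EGO complex, had the largest rise, by 1.25 (SE 0.07, adjusted p = 0.000207), close in size to the 1.34 of MEH1. With the length trend removed EGO2 rose by 0.63 (adjusted p = 0.00119), the gene being 228 bp long, and MEH1 by 1.17. EGO4 had the largest fall in this list, by 1.24 (SE 0.11, adjusted p = 0.000744). Of the 7 other genes around TORC2, 2 rose and 3 fell (71.4% called, near the share of all genes). YPK2, for a kinase that TORC2 activates, read 8.76 and 8.71 in the wild type and 6.27 and 6.32 in Sen1ΔN, and fell by 2.44 (5.42-fold, SE 0.07, adjusted p = 5.77e-05). YPK1, its paralog and the main kinase of the pair, fell by 0.30 (SE 0.08, adjusted p = 0.0195), a call lost without wild type replicate 1 (adjusted p = 0.124) or 2 (adjusted p = 0.0731). PKH2, whose kinase phosphorylates Ypk1, rose by 0.51 (SE 0.06).

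Among 10 other genes of the phosphatase branch, 5 rose and 3 fell (80.0% called, against 69.7% of all genes). SAP4, for a subunit that binds Sit4, rose by 1.20 (SE 0.10, adjusted p = 0.000625), and RRD1, for an activator of these phosphatases, fell by 1.06 (SE 0.10, adjusted p = 0.000707). Of 17 regulators downstream of TORC1, 4 rose, 4 fell and 9 did not pass (47.1% called, against 69.7% of all genes). IGO2 and its paralog IGO1, whose products protect mRNAs on entry into quiescence, rose by 0.71 and 0.69 (SE 0.07 and 0.08); with the length trend removed IGO2 rose by 0.33. FHL1, a transcription factor at ribosomal protein genes, fell by 1.23 (SE 0.07, adjusted p = 0.00021).

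The 23 other autophagy genes held 7 rises and 9 falls (69.6% called, against 69.7% of all genes). Besides VPS38, the largest rise, ATG33, a gene of mitophagy, had the largest fall, by 1.92 (3.79-fold, SE 0.09, adjusted p = 0.00015), from 11.11 and 11.17 to 9.31 and 9.13. Among 6 targets of the retrograde (RTG) pathway, which TORC1 restrains, 2 rose and 3 fell (83.3% called, against 69.7% of all genes). DLD3, for a lactate dehydrogenase, fell by 1.84 (SE 0.10, adjusted p = 0.000219), and PDH1 rose by 0.52 (SE 0.09, adjusted p = 0.00569), a call lost in the unmoderated linear model (adjusted p = 0.0664).

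**Figure D4:**
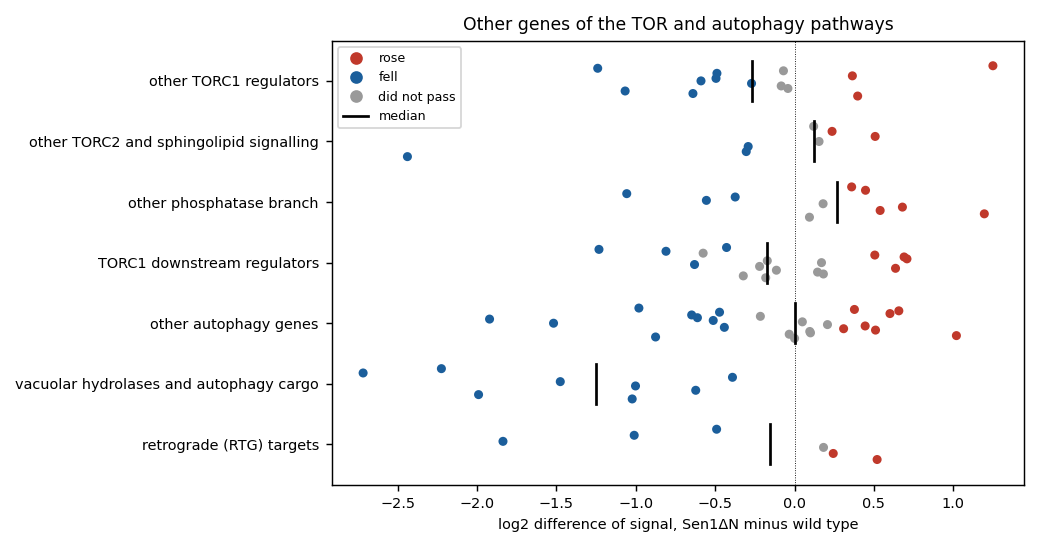
The log2 difference of signal (Sen1ΔN minus wild type, x axis) of 84 further pathway genes in 7 lists, each point a gene and each black bar the median of its list. The list of vacuolar hydrolases and cargo lies wholly below 0 with a median of -1.25, and the 6 other lists hold rises and falls.

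The differences were also set against gene length. Over all genes the median log2 difference was 0.15 in genes of up to 1000 bp, -0.088 between 1000 and 3000 bp, and 0.0021 above 3000 bp. Among the members the medians in these classes were -0.14 (13 genes), -0.077 (21 genes) and -0.030 (8 genes). In these classes 8 of 13, 9 of 21 and 2 of 8 members were called, against 73.7%, 68.2% and 60.7% of all genes of those lengths. The short members thus included the largest rises (ATG10 at 504 bp and MEH1 at 555 bp) and also falls such as ATG31 (591 bp) and ATG3 (933 bp). Of the 8 members above 3000 bp, among them TOR1 and TOR2 at 7413 and 7425 bp, only NPR3 and ATG2 were called.

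**Figure D5:**
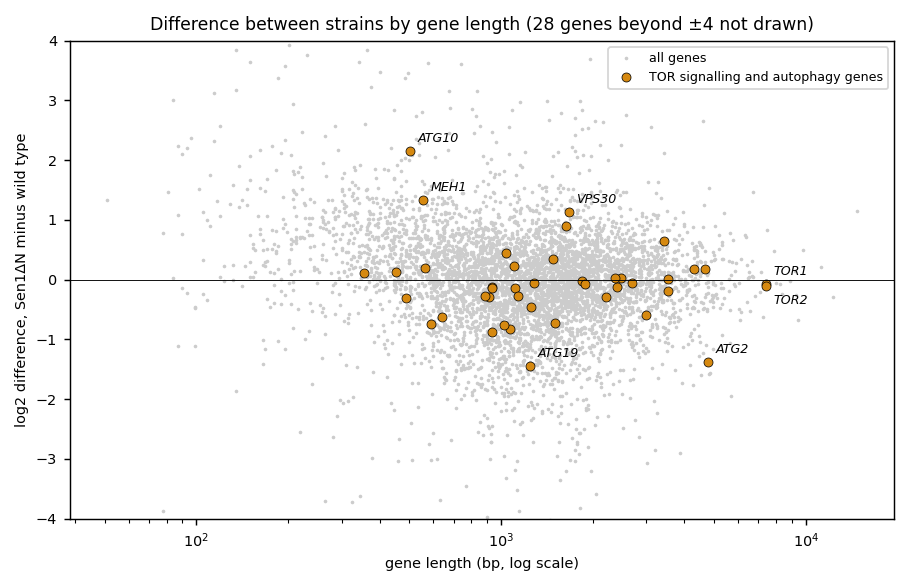
The log2 difference of signal (Sen1ΔN minus wild type, y axis) against gene length in bp (x axis, log scale), with all genes in grey and the 42 measured members in orange; 28 genes beyond 4 log2 units either way are not drawn. ATG10 and MEH1 lie among the short genes with rises, and TOR1 and TOR2 lie near 0 at the right.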

How the data were processed

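Each deposited value is the log2 signal of a probe set on an array. Tools named in the submitters' processing notes are Affymetrix Expression Console and RMA, and the versions are not given in the sources used here. Per the labels, 6 ug of total RNA was labelled for each array. Probe sets were named through the platform annotation and the R64 gene table, and 5498 of 10928 carried 1 yeast gene, averaged to 5449 genes. The 95th percentile of 1746 fission yeast probe sets on an array (5.23 to 5.36 log2) served as its background level. With so few arrays, their number sets the precision.

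Sen1ΔN minus wild type was fitted per gene with limma 3.58.1 (lmFit, eBayes without trend, R 4.3.3), two-sided, with Benjamini-Hochberg adjustment over all 5449 genes. The code was also run on simulated data in which far fewer genes changed than were called here, so that run does not check these calls. The fit to the arrays has 2 residual degrees of freedom, and the smallest p that permuting 4 arrays exactly could give is 0.33. Groups came from sample titles. Gene length is the span in the R64 table, and its trend was a loess fit (span 0.5, degree 1). Genes named were all members, SEN1 and, in each wider list, the largest called rise and fall. Others were singled out after their values were seen: the other vacuolar hydrolases, IML1, VPS34, SET6, the genes beside members in the gene table and the paralogs BIT2, ATG21, ATG34, YPK1 and IGO1. The members and lists were chosen with earlier results of these data known. Alternatives tried were omission of each array, median centring, quantile normalization, the replicate number as a block, a filter on dim genes, eBayes with trend, an unmoderated linear model, the brightest probe set and removal of the length trend.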

Additional observations from a re-analysis of the deposited data

How the results depend on the processing

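Of the 19 members called, 13 kept call and direction under all 12 alternatives, and 6 (LST8, PPH22, SLM4, ATG29, ATG4, ATG5) lost the call under at least 1. No called member changed direction. Leaving out single arrays gave 14 to 23 members called, 44 to 63 of the wider list and 2907 to 3879 of all genes. The unmoderated linear model called 15 members and 2445 of all genes, against 3796 in limma; LST8, PPH22, ATG4, ATG5 and ATG29 lost their calls in it, as did IML1, PDH1, YPK1 and ATG34 outside the members (adjusted p from 0.0503 to 0.136). The replicate numbers share no stated source, and deviations of same-numbered arrays correlated at -0.034. With the replicate number as a block, 18 members, 55 of the wider list and 3471 of all genes were called, and ATG5 lost its call. Members that were not called changed sign in some settings. Leaving out single arrays, differences ran from -0.18 to 0.036 for TOR1, -0.042 to 0.097 for SCH9, -0.31 to 0.034 for GTR1, -0.061 to 0.0056 for NPR2, -0.016 to 0.040 for ATG11, -0.011 to 0.22 for ATG8, -0.12 to 0.37 for ATG16 and, outside the members, -0.13 to 0.060 for VPS34. With the length trend removed, AVO2 was 0.16, SIT4 0.048, PPH21 0.071, GTR1 0.029, NPR2 0.076, ATG7 0.019, ATG8 -0.34, ATG16 -0.18 and VPS34 0.0086. With quantile normalization NPR2 was 0.00094. The cause of these changes was not tested. Signal near background limits ATG16 and ATG29.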

Other observations

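A few members are set here beside their neighbours in the R64 gene table. ATG10, which rose by 2.15 log2, lies between SDH2, which fell by 1.93, and FPS1, which fell by 0.20. The FPS1 call was lost on leaving out any single array (adjusted p from 0.0534 to 0.207) and with the length trend removed (-0.12). TOR1, at -0.07, lies between ARP3 (fell by 0.96) and YAE1 (rose by 1.84). ATG2 (fell by 1.37) lies between ZWF1 (fell by 1.54) and SLA2 (fell by 0.87). ATG23, an autophagy gene of the wider list, lies between SEN1, which rose by 1.47, and IMD3, which rose by 0.82, and itself rose by 0.60 (SE 0.07, limma adjusted p = 0.00126). These neighbours were looked up after the values were seen, and no test compared the pairs.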
